A study of Drosophila melanogaster with 4 samples.

Results

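The actin family of Drosophila melanogaster was followed in ovaries through its 6 genes, Act5C, Act42A, Act57B, Act79B, Act87E and Act88F, which were taken by gene symbol from the authors' full table of 17475 genes. Of these, 2 encode cytoplasmic actins (Act5C and Act42A) and 4 encode muscle actins. RNA of whole ovaries, dissected from flies aged 7 days and raised at 25 °C, was sequenced in 4 libraries. The allele wh7 of the wuho gene was present in 2 of them, and the other 2 were w1118 controls that the labels call wild type. Both groups share the w1118 strain, which is mutant for the eye colour gene white. The lesion in wh7, the number of flies per library and whether the 2 libraries of a genotype are separate groups of flies are missing from the labels, so p-values describe only how far these samples spread, which may be technical. The protein Wuho, a relative of human WDR4 with WD repeats, is a partner of a tRNA methyltransferase.

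Actin monomers polymerise into filaments. In non-muscle cells the filaments form the cortex, bundles and contractile networks, and in muscle they form the thin filaments on which myosin pulls. In the fly ovary the cytoplasmic actins build the ring canals that join nurse cells to the oocyte, the cables that hold nurse cell nuclei during dumping and the basal fibres of follicle cells, whereas muscle actins belong to the sheaths that surround the ovarioles and the whole ovary. Act57B and Act87E are used in larval and adult muscles, Act79B in muscles of the adult leg and thorax, and Act88F in the indirect flight muscles.

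The mutated gene was read first, because the description fields name another experiment, with RNA interference against tkv, while titles, source names and genotypes give wh7 and control. wuho was at 0.832 and 0.646 FPKM (fragments normalised for transcript length and library size) in the wh7 libraries, against 24.7 and 25.4 FPKM in controls, which limma called lower (log2(FPKM + 1) change -3.91 ± 0.152, SE; adjusted p = 0.00245). tkv was at 57.0 and 55.7 FPKM in wh7 and at 48.0 and 49.5 FPKM in controls (limma adjusted p = 0.0898). Ovary genes were present in all 4 libraries, with the germline genes vas at 195 and 196 FPKM in wh7 and 187 and 172 FPKM in controls, and osk at 503 and 618 FPKM in wh7 and 584 and 592 FPKM in controls. Neither vas nor osk was called, while other germline genes were called higher or lower, as given below. FPKM summed to 723859 and 753290 in wh7 and to 682413 and 757801 in controls, and library read totals were not given in the sources used here.

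Of the 6 actin genes, 3 rose in wh7 ovaries (Act42A, Act57B and Act87E) and 0 fell by limma. Act5C did not pass the test, and Act79B and Act88F were too low to enter it. Among all 8580 genes tested, those that reached 1 FPKM in 2 or more libraries, 39.7% were called at a Benjamini-Hochberg adjusted p under 0.05, 21.2% higher and 18.4% lower. The wh7 and control libraries did not overlap for Act5C, Act42A, Act57B and Act87E, and the same held for 77.0% of all tested genes, 35.7% with wh7 higher. Act57B and Act87E were called and at least 10-fold higher, as were 5.52% of tested genes. In whole ovaries, more cells of a type and more RNA per cell cannot be told apart. Act5C, Act42A, Act57B and Act87E each had at least 1 FPKM in all 4 libraries, so none of these 4 was tested only through its wh7 level. That was the case for 785 of all tested genes, those under 1 FPKM in both controls, of which 683 were called higher, and among the other 7795 genes 14.6% were called higher and 20.3% lower. The number of actin genes called was 3 in each of 12 other fits, which changed the pseudocount, the filter, the scaling, the prior variance or the blocking or left out 1 library. Across all tested genes 53.5% of calls were higher in wh7, against 63.1% under median ratio scaling, 44.9% under quantile normalization and 41.4% with a filter of 5 FPKM. With 1 library left out that share ranged from 43.7% without wh7 1 to 88.6% without control 1.

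**Figure D1:**
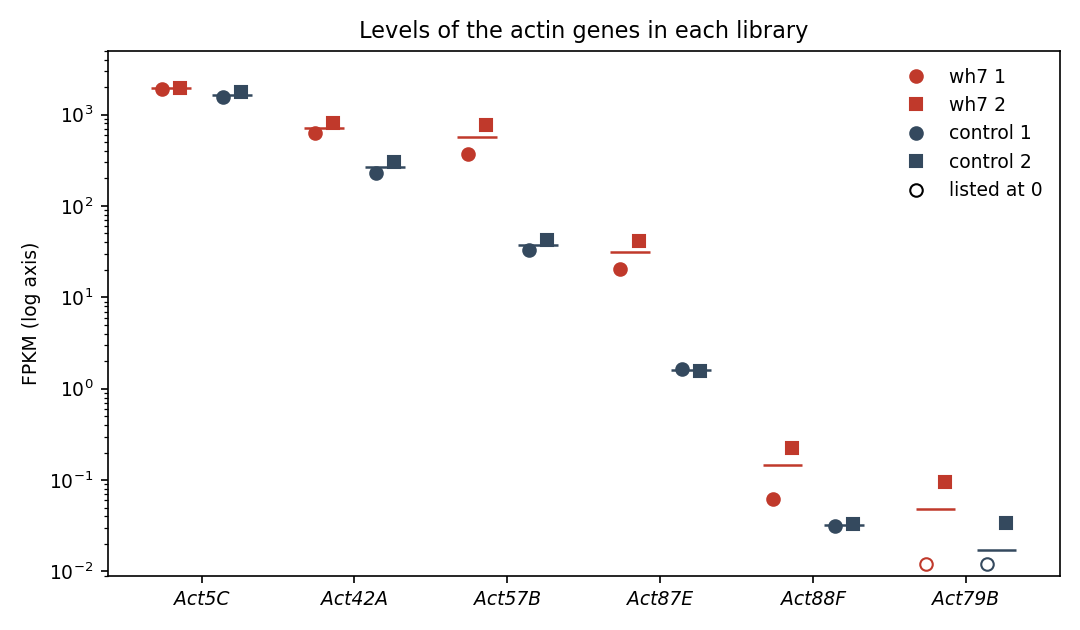
FPKM of each actin gene in each library on a log axis, wh7 libraries in red and control libraries in dark blue, with the horizontal line at the mean of the 2 libraries and open circles at the foot of the axis for values listed at 0. Act5C stands highest in all 4 libraries, Act57B and Act87E are more than 10-fold higher in wh7, and Act88F and Act79B stay under 0.3 FPKM.

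The order of the levels was Act5C, Act42A, Act57B and Act87E in every library. On the FPKM scale, which corrects for length, Act5C averaged 1941 ± 29.1, Act42A 711 ± 127, Act57B 575 ± 289 and Act87E 31.0 ± 14.6 in wh7 ovaries (SD, n = 2). In control ovaries the means were 1651 ± 146, 265 ± 50.4, 37.9 ± 6.42 and 1.61 ± 0.0544 FPKM in the same order (SD, n = 2). Act42A and Act57B overlapped in wh7, where Act57B reached 779 FPKM in wh7 2 and Act42A stood at 622 FPKM in wh7 1, although Act42A was the higher of the pair within each library. In controls these neighbours did not overlap. Act88F and Act79B held the last places and changed places between libraries.

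Act5C (FBgn0000042; chromosome X, 5900861 to 5905399, plus strand, BDGP6) encodes the main cytoplasmic actin. It was at 1920 FPKM in wh7 1 and 1962 FPKM in wh7 2, against 1548 FPKM in control 1 and 1754 FPKM in control 2. The wh7 libraries lay above both controls, but the gap between wh7 1 and control 2 was smaller than the gap between the controls. On the log2(FPKM + 1) scale Act5C differed by 0.24 ± 0.133 (SE), and its limma adjusted p, 0.212, ranged over 0.0955 to 0.745 in the 12 other fits. Its place among all 17475 genes, ranked by FPKM, was 71 and 72 in wh7 and 69 and 82 in controls.

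Act42A (FBgn0000043; chromosome arm 2R, 6013910 to 6015689, minus strand) encodes the second cytoplasmic actin. It was at 622 and 801 FPKM in wh7 1 and 2, against 229 and 301 FPKM in control 1 and 2, so the groups did not overlap. It rose 2.69-fold, or by 1.42 ± 0.190 (SE) in log2(FPKM + 1) (limma adjusted p = 0.00974, and 0.00475 to 0.0350 in the 12 other fits). Act42A thus stood at 0.324 and 0.408 of the Act5C level in wh7 and at 0.148 and 0.171 in controls. The log2 ratio of Act42A to Act5C was -1.46 ± 0.237 in wh7 and -2.65 ± 0.149 in controls (SD, n = 2), a difference of 1.19. An exact two-sided permutation test of that difference gave p = 0.333, which is the smallest value that 2 libraries against 2 can give.

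Act57B (FBgn0000044; chromosome arm 2R, 20944021 to 20946431, plus strand) had the highest level of the 4 muscle actin genes in every library. It was at 370 FPKM in wh7 1 and 779 FPKM in wh7 2, against 33.3 FPKM in control 1 and 42.4 FPKM in control 2. The wh7 libraries were far apart from each other and both well above the controls. Act57B rose 15.2-fold, by 3.80 ± 0.373 (SE) on the log2(FPKM + 1) scale (limma adjusted p = 0.00607, and 0.000521 to 0.0252 in the 12 other fits). The fold was 9.78 without wh7 2 and 20.6 without wh7 1. Among all genes Act57B took places 237 and 144 in wh7 and places 3930 and 3180 in controls.

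A small nucleolar RNA gene (FBgn0065059) is annotated on the same strand inside the 3′ untranslated region of Act57B, at 20945970 to 20946065, and the authors' table gives both genes a single locus. This snoRNA was at 3865 and 12176 FPKM in wh7 and at 454 and 484 FPKM in controls, 17.1-fold higher in wh7 (limma adjusted p = 0.0113). Its length of 96 bases makes FPKM uncertain, and reads of the host exon and of the snoRNA cannot be told apart. The snoRNA gene was singled out after its values were seen.

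Act87E (FBgn0000046; chromosome arm 3R, 13425833 to 13428375 as deposited, plus strand), the other muscle actin that was tested, was low in controls. It was at 20.7 FPKM in wh7 1 and 41.4 FPKM in wh7 2, against 1.65 FPKM in control 1 and 1.57 FPKM in control 2. The controls lay close together, and each wh7 library was more than 10-fold above them. Act87E rose 19.2-fold, by 3.54 ± 0.343 (SE) on the log2(FPKM + 1) scale (limma adjusted p = 0.00602, and 0.00104 to 0.0252 in the 12 other fits). The fold was 12.8 without wh7 2 and 25.7 without wh7 1. From its annotated transcript lengths, these levels stood for about 655 to 774 reads in wh7 1 and 1258 to 1487 in wh7 2, and for about 52.8 to 62.5 reads in control 1 and 47.4 to 56.1 in control 2. The non-coding gene CR45591, which overlaps the start of Act87E on the opposite strand and was singled out after its values were seen, was at 0.904 and 0.312 FPKM in wh7 and at 0 and 0.315 FPKM in controls. The deposited start of Act87E is that of CR45591, 150 bases before the annotated start of Act87E.

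The proportion of these 2 muscle actins to each other was compared as well. Act87E stood at 0.0558 and 0.0531 of the Act57B level in wh7 1 and 2 and at 0.0495 and 0.0371 in control 1 and 2. The difference in the log2 ratio, 0.34, could not be called (exact two-sided permutation p = 0.333, the smallest possible), and with 1 FPKM added to both genes its direction turned (-0.27).

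Act88F and Act79B, the actins of flight muscle and of other adult muscles, were barely present. Act88F (FBgn0000047; chromosome arm 3R, 15439969 to 15442177, plus strand) was at 0.0628 and 0.227 FPKM in wh7 and at 0.0317 and 0.0328 FPKM in controls. After correction for the scale of each library, these values were 2 and 7 times a common step in wh7 and 1 times that step in each control, so the level rests on about 2 and 7 reads against 1 and 1. Act79B (FBgn0000045; chromosome arm 3L, 21985210 to 21987190, plus strand) was listed at 0 in wh7 1 and at 0.0958 FPKM in wh7 2, against 0 in control 1 and 0.0341 FPKM in control 2. Its higher value was 2.84 times its lower one after the same correction, not a whole multiple, and the groups overlapped. In a fit with no filter on low values, changes were 0.15 ± 0.0839 (SE) for Act88F and 0.042 ± 0.0597 (SE) for Act79B on the log2(FPKM + 1) scale, with limma adjusted p of 0.275 and 0.612. Leaving out wh7 1 or wh7 2 gave Act88F a limma adjusted p of 0.00769 or 0.0361, while quantile normalization turned its direction, so no difference was established from these few reads. For Act79B none was detectable at this depth. The coding sequences of fly actins are closely alike, and the rule for reads that match more than 1 actin gene was not given in the sources used here, so the split of reads between members is uncertain. Its part in the values was not tested.

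The composition of actin transcripts differed between these wh7 and control libraries. Summed over the 6 genes, actin FPKM was 2933 in wh7 1 and 3583 in wh7 2, against 1812 in control 1 and 2099 in control 2. Actin made up 0.405% and 0.476% of all FPKM in wh7 and 0.266% and 0.277% in controls. Act5C held 65.5% and 54.7% of actin FPKM in wh7 and 85.4% and 83.6% in controls. Act42A held 21.2% and 22.4% in wh7 and 12.7% and 14.3% in controls. Act57B held 12.6% and 21.7% in wh7 and 1.84% and 2.02% in controls, and Act87E 0.704% and 1.15% in wh7 and 0.0911% and 0.0750% in controls. Act88F and Act79B together stayed under 0.01% in every library.

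**Figure D2:**
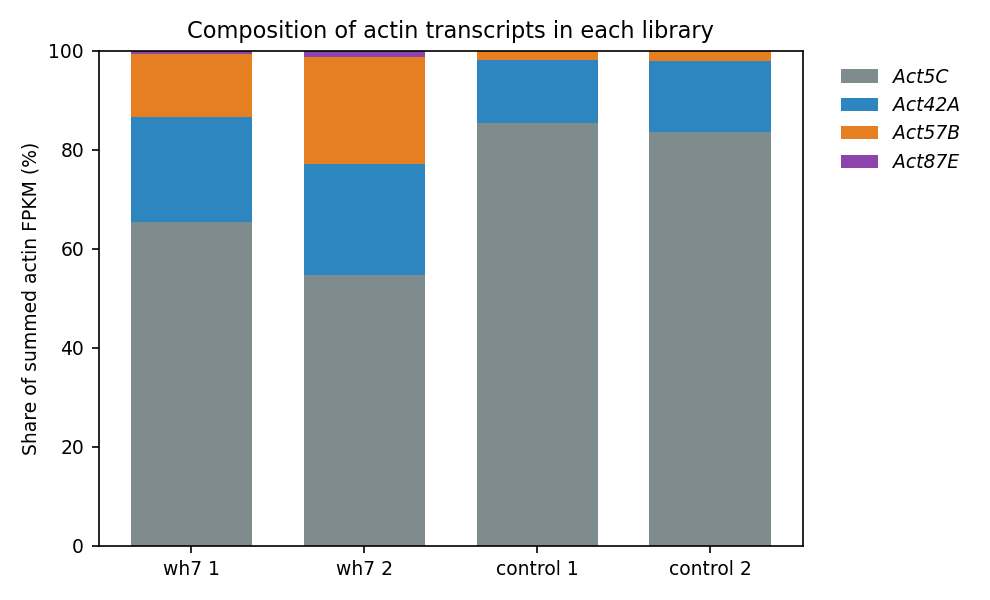
Stacked share of each actin gene in the summed FPKM of the 6 genes (y axis, percent) in each library (x axis). Act5C falls short of 70% in both wh7 libraries and exceeds 80% in both controls, and Act88F and Act79B are too small to draw.

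The 4 muscle actins together took 18.1 ± 6.77% of actin FPKM in wh7 ovaries and 2.01 ± 0.118% in controls (SD, n = 2), a difference of 16.1 percentage points. Without wh7 2 the difference was 11.3 and without wh7 1 it was 20.9 percentage points. The log2 ratio of summed muscle to summed cytoplasmic actin FPKM differed by 3.38 between the genotypes. These shares do not depend on a scale factor between libraries. Between the groups they did not overlap, and the exact two-sided permutation p of each difference was 0.333, which is the smallest possible. The share of Act5C is bound to be lower where the others are higher, and its own FPKM did not fall.

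Other muscle genes were higher beside the muscle actins. Of 12 muscle markers other than actins, 11 rose by limma and 0 fell, and the exception was the transcription factor gene Mef2 (32.9 ± 5.04 FPKM in wh7 and 23.8 ± 4.71 FPKM in controls; SD, n = 2; limma adjusted p = 0.110). Among the 11 were sls and Unc-89, which were under 1 FPKM in both controls and so entered the test only through wh7. Of the other 10 markers 9 rose. Over all tested genes 21.2% were called higher, and 14.6% without those under 1 FPKM in both controls. The FPKM of all 12 summed to 530 and 837 in wh7 and to 67.6 and 77.4 in controls, and none of the 12 was at 0 in all libraries. The muscle myosin heavy chain gene Mhc was at 57.2 and 137 FPKM in wh7 and at 3.90 and 5.06 FPKM in controls. The part of muscle tissue in the actin changes was not tested.

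The libraries of wh7 differed from each other in these genes. All 12 muscle markers were higher in wh7 2 than in wh7 1, by a median of 1.71-fold and a range of 1.14-fold to 2.85-fold, while the median over all tested genes was 1.01-fold. Act57B was 2.10-fold and Act87E 2.0-fold higher in wh7 2 than in wh7 1. Act42A differed between the same libraries by 1.29-fold and Act5C by 1.02-fold. The ratio of control 2 to control 1 was 1.27 for Act57B, 0.953 for Act87E, 1.31 for Act42A and 1.13 for Act5C. For the muscle markers the median of that ratio was 1.30, with a range of 0.754 to 2.27.

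**Figure D3:**
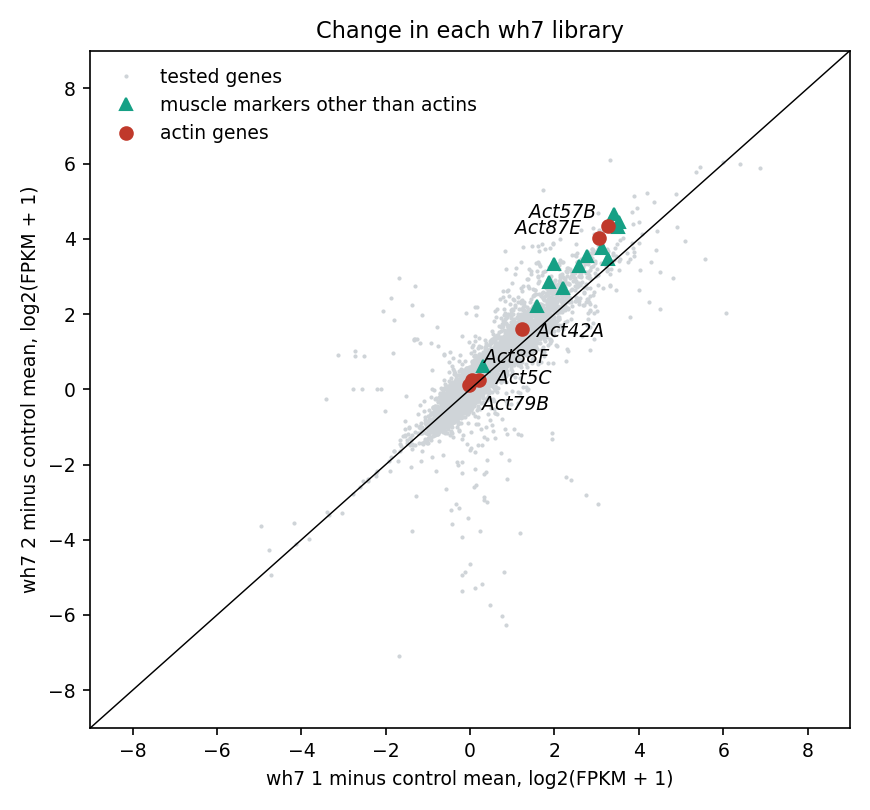
Change of each tested gene (grey), muscle marker (green triangles) and actin gene (red) in wh7 1 (x axis) and wh7 2 (y axis) against the mean of both controls, in log2(FPKM + 1). Act57B, Act87E and the muscle markers lie above the diagonal of equal change, where Act57B is at 3.27 and 4.34, while Act5C is near 0 in both libraries.

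The actin genes were also expressed relative to the summed FPKM of the muscle markers, a comparison added after the values were seen. Act57B was at 0.699 and 0.932 of the sum of all 12 markers in wh7 and at 0.493 and 0.548 in controls. Mef2, the marker that was not called, made up much of the control sum. Without it the ratio was 0.739 and 0.974 in wh7 and 0.823 and 0.744 in controls, so the groups overlapped. Mef2 was left out after its values were seen. Dropping the marker with the smallest fold is bound to lower each ratio in wh7 relative to controls. Nothing is concluded from that overlap. Act87E was at 0.0390 and 0.0494 of the 12-marker sum in wh7 and at 0.0244 and 0.0203 in controls, and without Mef2 at 0.0412 and 0.0517 in wh7 and 0.0408 and 0.0276 in controls. Act42A was at 1.17 and 0.957 times the 12-marker sum in wh7 and 3.39 and 3.88 times in controls, and without Mef2 at 1.24 and 1.001 times in wh7 and 5.66 and 5.28 times in controls. The exact two-sided permutation p of each ratio was 0.333, the smallest possible, except for Act57B without Mef2, where it was 1. Adjustment over the 6 log2 ratios, those to all 12 markers and those between actin genes, leaves each permutation p at 0.333. The markers themselves differed in their changes, with Mhc 21.7-fold, Mlc2 19.6-fold and Msp300 5.70-fold higher in wh7, beside 15.2-fold for Act57B.

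Markers of other cells gave the following levels. Over all tested genes 21.2% were called higher and 18.4% lower. Without those under 1 FPKM in both controls, 14.6% were called higher and 20.3% lower. Of 7 hemocyte markers 4 were tested and 3 rose, 1 of which (Hml) entered the test only through wh7, with summed FPKM of 169 and 202 in wh7 and of 24.9 and 40.9 in controls, and NimC1 and He were at 0 in both controls. Of 8 follicle cell markers 7 were tested, 5 rose and 0 fell. Those that rose were Fas3 (6.74-fold), eya (4.74-fold), mirr (4.38-fold), tj (2.78-fold) and br (2.57-fold). The sum of all 8 was 3316 and 2146 FPKM in wh7 and 1146 and 3532 FPKM in controls. Most of it was the eggshell gene Vm26Aa, which was not called. Vm26Aa was at 2561 and 1217 FPKM in wh7, and at 980 FPKM in control 1 and 3092 FPKM in control 2. Of 8 germline markers, 0 of which entered the test only through wh7, 2 rose (25.0%) and 3 fell (37.5%). The matching shares of all tested genes were 14.6% and 20.3%, and with 8 genes the comparison is a description. piwi (1.87-fold) and aub (1.48-fold) rose, and nos (0.659-fold), otu (0.732-fold) and BicD (0.795-fold) fell. The sums of all 8 were 1597 and 1740 FPKM in wh7 and 1791 and 1804 FPKM in controls. Of 7 gut and nervous system markers 2 were tested and rose, the nervous system genes elav and Appl. The sums of all 7 were 9.84 and 10.8 FPKM in wh7 and 1.73 and 2.42 FPKM in controls. The gut genes Jon65Aiii, Amy-p and alphaTry were too low to be tested, at most 0.325 FPKM (Amy-p in wh7 2). Of 5 flight muscle markers, Act88F included, 2 were tested and both rose. Strn-Mlck, which encodes a kinase of the myosin light chain, was at 7.48 and 11.1 FPKM in wh7 and 1.35 and 2.31 FPKM in controls (limma adjusted p = 0.0122). TpnC4, a troponin C gene used in flight muscle, was at 1.92 and 1.36 FPKM in wh7 and 0 and 0.0706 FPKM in controls, and it entered the test only through wh7. The others were near 0, with fln, which encodes flightin, at 0.106 and 0 FPKM in wh7 and at 0 in both controls, and salm, the gene of a transcription factor, at 0.118 and 0.0230 FPKM in wh7 and 0 and 0.00773 FPKM in controls. The part of these cells in the actin levels was not tested.

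The genes that work with actin in muscle rose with the muscle actins. Of 14 thin filament and Z-disc partners 12 were tested, 10 rose and 0 fell, with a median change of 2.07 on the log2(FPKM + 1) scale against -0.04 over all tested genes, of which 21.2% were called higher. TpnC4 and sals entered the test only through wh7, and of the other 10 members 8 rose. Among all tested genes not under 1 FPKM in both controls, 14.6% were called higher. Without wh7 2 the number that rose was 6. The 4 largest rises included TpnC73F, a troponin C gene (249 ± 63.7 FPKM in wh7 and 13.1 ± 1.36 FPKM in controls), and Tm2, which encodes a tropomyosin (155 ± 54.6 FPKM in wh7 and 9.02 ± 0.239 FPKM in controls; SD, n = 2). They also included up, which encodes troponin T (183 ± 66.5 FPKM in wh7 and 11.2 ± 2.40 FPKM in controls), and wupA, which encodes troponin I (152 ± 63.7 FPKM in wh7 and 9.97 ± 2.41 FPKM in controls). The limma adjusted p of these 4 genes was 0.00281 to 0.00545, and each was called in all 12 other fits. Tm1, a tropomyosin gene that also serves the oocyte, and Actn, which encodes the crosslinker alpha-actinin, did not pass.

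Of 26 genes for monomer binding, assembly and severing, 9 rose, 4 fell and 13 did not pass, with a median change of 0.03 (-0.04 over all tested genes). Over all tested genes 21.2% were called higher and 18.4% lower, so the share that fell was near that of all genes. Arpc3B and form3 entered the test only through wh7. Of the other 24 genes 7 rose (29.2%), against 14.6% of all tested genes not under 1 FPKM in both controls. With a control library left out, 2 (control 1) or 3 (control 2) members rose and 0 fell, and with a wh7 library left out 4 (wh7 1) or 2 (wh7 2) rose and 2 (wh7 1) or 0 (wh7 2) fell. The number that fell was 1 under quantile normalization and 1 under median ratio scaling. Arpc3B, a subunit of the branching complex Arp2/3, was at 8.06 ± 3.40 FPKM in wh7 and 0.765 ± 0.153 FPKM in controls, and its paralog Arpc3A at 66.0 ± 1.40 FPKM in wh7 and 49.96 ± 0.397 FPKM in controls (limma adjusted p = 0.02005). Gel, which encodes the severing protein gelsolin, was at 25.3 ± 5.60 FPKM in wh7 and 7.45 ± 1.46 FPKM in controls (SD, n = 2; limma adjusted p = 0.00974). Gel was called in all 12 other fits.

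The formin gene form3 was at 2.68 ± 0.734 FPKM in wh7 and 0.318 ± 0.0996 FPKM in controls, and its call was lost under quantile normalization and where either control was left out. The filament elongation gene ena was at 70.5 ± 0.397 FPKM in wh7 and 47.2 ± 3.60 FPKM in controls (limma adjusted p = 0.0132), which lost its call where either control was left out (0.0122 to 0.0587 over 12 other fits). Among the genes of monomer-binding proteins, cib, chic and tsr were abundant in every library. The beta-thymosin repeat gene cib was at 1137 and 1222 FPKM in wh7 and at 736 and 873 FPKM in controls (limma adjusted p = 0.0304), a call lost in 5 of 12 other fits. The profilin gene chic was at 1042 and 1158 FPKM in wh7 and at 835 and 845 FPKM in controls, and the cofilin gene tsr at 1197 and 1229 FPKM in wh7 and at 1118 and 1154 FPKM in controls. The limma adjusted p was 0.0452 for chic and 0.495 for tsr, and the call of chic was lost in 8 of 12 other fits, among them all 4 with a library left out. cib, chic, tsr and Arpc3A were chosen after their values were seen.

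Of 14 genes for the chaperonin CCT, the cytosolic chamber in which newly made actin folds, and for prefoldin, which hands actin to it, 0 rose and 2 fell, with a median change of -0.06 (-0.04 over all tested genes). That share of falls is near the 18.4% of all tested genes, of which 21.2% were called higher. CG7033, a CCT subunit gene, fell to 337 ± 12.4 FPKM in wh7, against 469 ± 14.7 FPKM in controls (SD, n = 2; limma adjusted p = 0.0157), and the prefoldin gene CG10635 to 91.1 ± 4.32 FPKM, against 118.1 ± 4.79 FPKM in controls (limma adjusted p = 0.0253). Both calls were lost when any of the 4 libraries was left out, and that of CG10635 also after quantile normalization. The other 12 members did not pass.

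Of 9 actin-related protein genes 8 were tested, 0 rose and 1 fell, with a median change of -0.01. The share of falls was again near the 18.4% of all tested genes, of which 21.2% were called higher. The exception was Arp5, which encodes a subunit of a chromatin remodeller, at 15.1 ± 0.634 FPKM in wh7 and 22.04 ± 0.0448 FPKM in controls (SD, n = 2; limma adjusted p = 0.0241), a call lost when any of the 4 libraries was left out. Arp53D, a gene of the male germline, was at 0.0372 FPKM in wh7 1 and at 0 in the other libraries. SRF, encoded by bs, and its coactivator Mrtf, which responds to free actin monomers, drive many actin genes in mammals. Of these genes Mrtf fell to 20.1 ± 1.35 FPKM in wh7, against 28.6 ± 0.956 FPKM in controls (limma adjusted p = 0.0271, not called where either control or wh7 2 was left out), and bs was at 22.5 ± 2.09 FPKM in wh7 and 26.7 ± 4.37 FPKM in controls (SD, n = 2; limma adjusted p = 0.274).

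**Figure D4:**
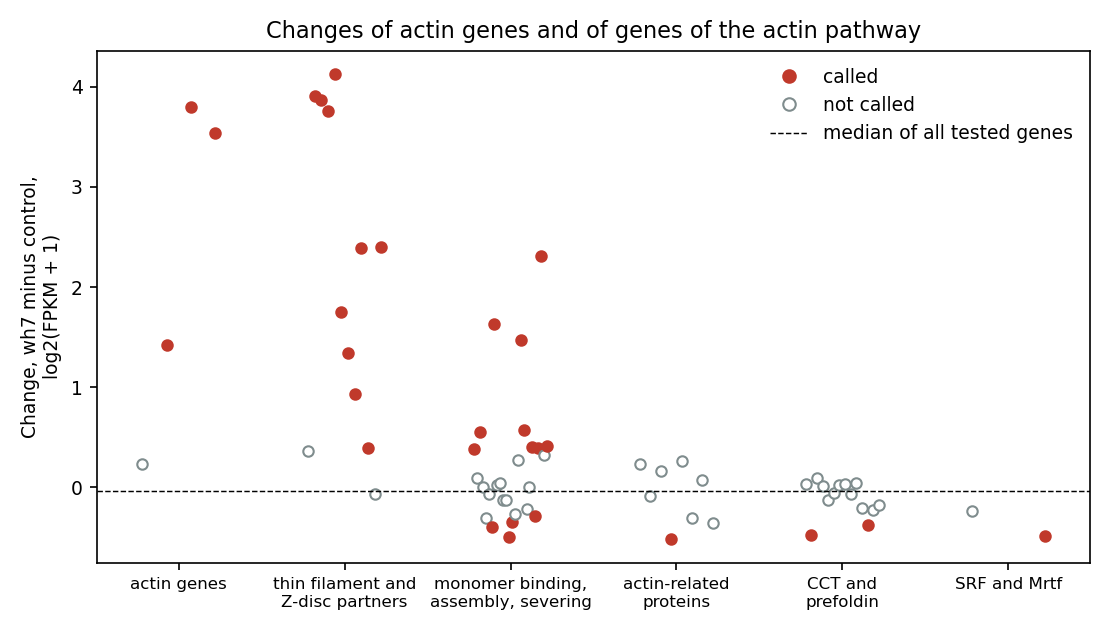
Change (y axis, wh7 minus control in log2(FPKM + 1)) of the 4 tested actin genes and of each tested member of 5 lists of actin partners, filled red where limma called the gene and open grey where it did not, with the median of all tested genes (-0.04) as a dashed line. Thin filament partners reach the level of Act57B and Act87E, while CCT and prefoldin genes lie near or under the line.

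The profiles most like those of the actin genes were sought by the Euclidean distance between log2(FPKM + 1) values over the 4 libraries, each gene centred on its own mean, among all tested genes outside the family. Nearest to Act5C were l(2)35Di (distance 0.0114), the Mediator subunit gene kto (0.0156) and CG13390 (0.0327), none of them called. Nearest to Act42A were beta-Spec, which encodes beta-spectrin of the membrane skeleton (0.0716; 49.2 and 64.7 FPKM in wh7 and 18.3 and 22.6 FPKM in controls), cv-2, which encodes a BMP-binding protein (0.0872), and CG33493 (0.103). Of these, cv-2 was at 3.75 and 5.57 FPKM in wh7 and 0.771 and 1.30 FPKM in controls. CG33493 was at 6.46 and 8.63 FPKM in wh7 and 1.63 and 2.81 FPKM in controls. After quantile normalization the change was 0.39 for cv-2 and 0.52 for CG33493, against 1.48 for beta-Spec and 1.47 for Act42A. Nearest to Act57B were the matrix protein gene Ppn (0.122; 50.0 and 106 FPKM in wh7 and 3.52 and 4.38 FPKM in controls), wupA (0.167) and the glutathione transferase gene GstE10 (0.170). Nearest to Act87E were Neurochondrin (0.158), Pif1A (0.178) and GstE10 (0.323). GstE10 was at 8.40 and 20.1 FPKM in wh7 and at 0 and 0.266 FPKM in controls. It entered the test only through wh7. The added 1 FPKM understates the change of such low genes, so a short distance does not mean an equal fold. With 4 libraries these distances are a description.

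The 6 genes share a coding length and differ in exon layout, per the Ensembl annotation of BDGP6. Each annotated transcript of each member encodes 376 codons. Act5C, Act42A and Act87E have no intron in the coding sequence. Act57B has a coding intron after 40 coding bases, in codon 14. Act79B and Act88F, the members near 0 in the ovary, both have a coding intron after 925 coding bases, in codon 309. Act5C has 5 annotated transcripts with spliced lengths of 1637 to 2863 bases and 3′ untranslated regions of 345 to 1571 bases, and Act42A, Act57B and Act88F have 1 each, of 1626, 1724 and 1595 bases.

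**Figure D5:**
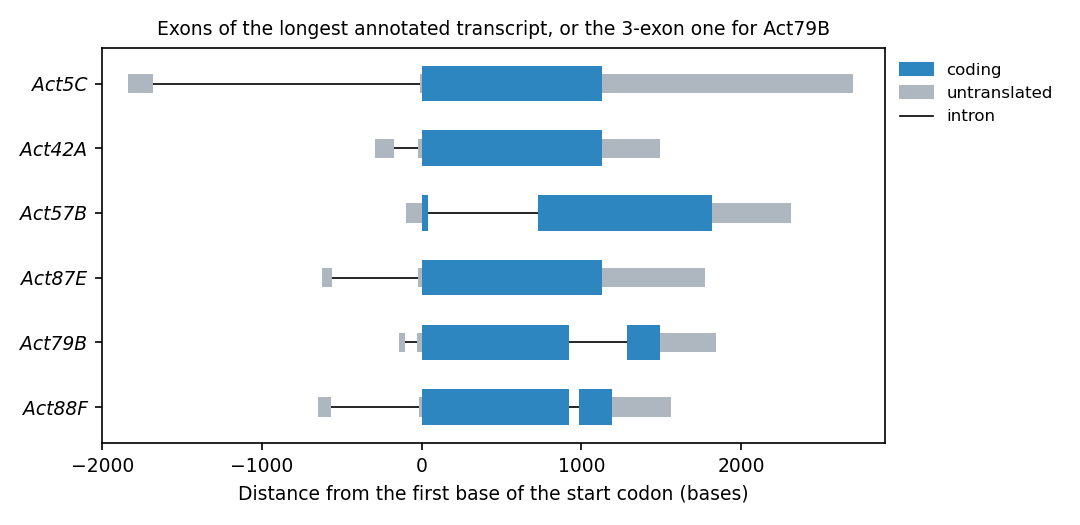
Exon layout of 1 annotated transcript per actin gene, drawn to scale by distance from the start codon in bases (x axis), with coding parts in blue, untranslated parts in grey and introns as lines. Act79B and Act88F are interrupted at the same point, 925 bases into the coding sequence, and Act57B at 40.

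The authors' own results were set beside these. In the authors' deposited table the q-value was 0.000870 for Act42A, Act57B and Act87E, 0.885 for Act5C and 1 for Act79B and Act88F, so its calls fell on the same 3 members. The 2 analyses differed for wuho, which limma called lower and the authors' table did not call (ratio 0.0295, q-value 0.302). In the authors' deposited tables of enriched terms, made from genes changed at least 2-fold, actin genes entered 3 of 318 gene ontology terms and 2 of 17 KEGG pathways. Act42A, Act57B and Act87E were 3 of the 18 genes of the Hippo signaling pathway in the authors' deposited table (3.67-fold enriched, Benjamini adjusted p = 0.000271). The same 3 genes were 3 of the 8 genes of the phototransduction pathway there (Benjamini adjusted p = 0.0874) and 3 of the 10 genes of the term structural constituent of cytoskeleton (Benjamini adjusted p = 0.657). The remaining terms held Act57B alone of the actin genes. They were plasma membrane (145 genes, Benjamini adjusted p = 3.51e-09) and heart development (14 genes, Benjamini adjusted p = 0.172).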

How the data were processed

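RNA was extracted with Trizol, and strand-specific Agilent SureSelect libraries were read from 1 end over 75 bases, per the labels' protocols. The tools named in the submitters' processing notes are bcl2fastq (2.0) and Bowtie (0.12.2), with BDGP6 and mm8 as builds of unstated use. The treatment of strand and of shared reads in counting was not given in the sources used here. Each library has an FPKM value per gene that the authors deposited, with 0.0001 in place of 0. The authors deposited, besides, a wh7 to control ratio with its log2, a p-value and a q-value. The authors also deposited enrichment tables with a count of genes per term, a fold enrichment and p-values. Deposited starts count from 0, and 1 was added.

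Genes that reached 1 FPKM in 2 or more libraries were fitted with limma 3.58.1 in R 4.3.3 on log2(FPKM + 1) with a mean-variance trend (prior degrees of freedom 2.69), and p-values were adjusted over all 8580 genes by the Benjamini-Hochberg method at 0.05. This scale understates the change of low genes. Folds are ratios of mean FPKM. Shares and ratios were compared by exact permutation over libraries. All 4 per-library columns were used. The relative value of 1 read in each library was taken from the most common ratio between libraries among genes under 0.1 FPKM. Approximate reads use the value of 1 read in 1 kb, 0.0494 and 0.0515 FPKM in wh7 and 0.0489 and 0.0520 FPKM in controls, found from genes with 1 annotated transcript. Such numbers cover counting error only. The alternatives were another pseudocount (0.1), no filter or one of 5 FPKM, quantile normalization, median ratio scaling, no trend, each library left out, and a block on replicate number.

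The members and 11 gene lists with 112 entries, all matched, were chosen with earlier results of these data known. Genes were named by rule: the members, wuho and tkv, the 3 nearest profiles of each tested member, and up to 4 called members with the largest change per pathway list or 2 of the highest level where none was called. Marker genes and others named outside it were chosen after their values were seen. Sequence comparisons of the actin genes were planned but are not reported, since sequences were not used here.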

Additional observations from a re-analysis of the deposited data

How the results depend on the processing

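Act42A, Act57B and Act87E were called in the same direction in each of 12 other fits, and Act5C in none. Over these fits the log2 change was 1.23 to 1.62 for Act42A, 3.27 to 4.34 for Act57B, 3.03 to 4.10 for Act87E and 0.047 to 0.33 for Act5C. For Act79B, which rests on a few reads, the change turned to -0.063 after quantile normalization and ranged over -0.024 to 0.11 with 1 library left out, and its share of actin FPKM differed by -0.000812 to 0.00186 percentage points. For Act88F the change turned to -0.071 after quantile normalization and ranged over 0.042 to 0.25 with 1 library left out. Without wh7 1 or wh7 2 that of Act88F passed the threshold (limma adjusted p = 0.00769 and 0.0361), in fits with no filter on a gene of 1 read per control. The difference in the log2 ratio of Act87E to Act57B turned to -0.27 with 1 FPKM added, which weighs most on Act87E in controls (1.65 and 1.57 FPKM). The cause of the other turns was not tested. Over all genes, calls numbered 764 to 2363 with 1 library left out (764 without control 1, 1565 without control 2 and 1226 without wh7 2), against 3403 with all libraries. Higher calls, 1820 in all, were 672 to 1127 with 1 library left out, 1087 with a filter of 5 FPKM and 1096 after quantile normalization, and lower calls, 1583 in all, were 87 to 1330 with 1 library left out and 967 with no filter.

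Replicate numbers are not known to pair the libraries. Differences between replicates correlated at -0.165 between genotypes across tested genes, which are not independent. A replicate block gave 3624 calls, 1875 higher and 1749 lower, and 3 actin genes. With the numbers crossed, an alternative chosen after seeing the data, there were 2729 calls, 1655 higher and 1074 lower, and 3 actin genes. With 2 libraries per genotype and no read counts, differences of genes under about 1 FPKM, among them Act79B and Act88F, are limited by depth.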
